A study of Mus musculus with 6 samples.

Results

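The genes described here are 9 whose protein products are used to sort and name mouse hematopoietic stem and progenitor cells: Kit, Ly6a, Cd34, Cd48, Slamf1, Flt3, Procr, Esam and Cd27. They were taken by symbol from the 32285 genes in the count matrices, and each symbol matched 1 gene. The cells were bone marrow HSPCs, sorted as CD45.1+ Lin- cKit+ Sca1+ (LSK), from female C57BL/6J mice that carried the CD45.1 allele, were 8 to 12 weeks old and had received no conditioning. In the AML group, mice had been injected with 1000000 C1498 cells, a CD45.2 mouse acute myeloid leukemia line, and in the PBS group with saline alone. All mice were killed on day 21, so both groups share strain, allele, sex, age and time, and the sort gate was set to leave the CD45.2 leukemia cells out. Each group had 3 single-cell RNA libraries, and the labels do not tie a library to a single mouse, so the tests measure the spread between libraries.

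Kit is the receptor for stem cell factor, and Ly6a encodes Sca-1, a small anchored surface protein whose gene interferons induce in many mouse cells. Together they define the LSK gate. Within that gate, the SLAM family receptors Slamf1 (CD150) and Cd48, with the cytokine receptor Flt3, divide the cells: by protein, stem cells (HSCs) carry CD150 without CD48, MPP-2 carry both, MPP-3 carry CD48 alone, and MPP-4 carry FLT3. Procr (EPCR, the protein C receptor) and Esam (an endothelial adhesion molecule) mark cells rich in HSCs, while Cd34 (a sialomucin) and Cd27 (a TNF receptor family member) are used to part long-term HSCs from the progenitors that follow them. None of this background comes from the present data, which hold RNA and no protein.

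The stretches upstream of the 3 genes that define the SLAM and FLT3 gates, and of Procr, are shown because the results below turn most on these 4 genes. Each is the 250 bases before the start of the gene in RefSeq, build GRCm38.p6, written 5′ to 3′ on the strand of the gene. Capitals mark matches, on either strand, to GATA letters (AGATAA, also with T as the first or G as the last base), to RUNX letters (TGTGGT, also with C as the third base), to ETS letters (either CCGGAA or else AGGAAG) and to the E-box CAGCTG. No match overlapped another.
Slamf1 (chr1:171766882-171767131, plus strand): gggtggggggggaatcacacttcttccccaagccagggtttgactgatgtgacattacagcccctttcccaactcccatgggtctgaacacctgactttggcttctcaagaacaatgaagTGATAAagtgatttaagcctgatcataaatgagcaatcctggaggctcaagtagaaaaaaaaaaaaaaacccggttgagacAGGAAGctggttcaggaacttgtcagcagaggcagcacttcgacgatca
Cd48 (chr1:171681742-171681991, plus strand): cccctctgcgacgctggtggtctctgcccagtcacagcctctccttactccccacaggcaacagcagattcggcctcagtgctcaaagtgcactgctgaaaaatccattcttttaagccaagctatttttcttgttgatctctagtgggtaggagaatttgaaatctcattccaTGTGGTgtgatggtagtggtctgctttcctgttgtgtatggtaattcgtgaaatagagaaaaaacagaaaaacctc
Flt3 (chr5:147400490-147400739, minus strand): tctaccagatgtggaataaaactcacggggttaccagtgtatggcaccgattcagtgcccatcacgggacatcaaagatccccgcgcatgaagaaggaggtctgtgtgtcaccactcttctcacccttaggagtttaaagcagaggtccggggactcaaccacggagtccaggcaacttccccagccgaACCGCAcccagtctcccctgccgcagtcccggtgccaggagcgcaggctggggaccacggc
Procr (chr2:155750967-155751216, plus strand): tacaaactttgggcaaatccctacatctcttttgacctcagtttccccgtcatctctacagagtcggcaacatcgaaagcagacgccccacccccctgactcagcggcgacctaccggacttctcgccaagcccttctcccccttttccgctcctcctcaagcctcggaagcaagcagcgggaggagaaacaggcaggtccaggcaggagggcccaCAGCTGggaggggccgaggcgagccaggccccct
Of 32851 RefSeq stretches of this length, 26.5% held a GATA match, 18.6% a RUNX match, 38.2% an ETS match and 13% the E-box. Interferon-related letters were searched as well: the ISRE occurred in 2.98% and the GAS letters TTCNNNGAA in 7.02% of all stretches, and in none of the stretches of the 7 members that the table held. Ly6a and Esam were not searched. These matches are descriptions of letters and were not tied to any value below.

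In GENCODE M21 (GRCm38), Cd48 (chr1:171682009-171705258) and Slamf1 (chr1:171767127-171801184) lie 61.9 kb apart on the plus strand. Flt3 lies at chr5:147330741-147400489 on the minus strand, Kit at chr5:75574916-75656722 on the plus strand and Procr at chr2:155751117-155755471 on the plus strand. Ly6a lies at chr15:74994877-74998031 on the minus strand, among its Ly6 relatives. Of the 90-base stretches of its annotated transcripts, 2.21% also occurred in Ly6c1, so Ly6a counts were close to unique by this measure. Exons of Cd34 overlap the antisense gene Gm16897 and those of Cd27 hold the miRNA gene Mir8113; no exon of another member overlapped an exon of another gene.

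The authors' cell table held 16822 cells in 5 libraries: 6838, 934 and 4398 in PBS 1 to 3, 693 in AML 1 and 3959 in AML 3. None came from AML 2, so AML was represented by 2 libraries. Median depth per cell ran from 2393 UMIs (AML 1) to 9586 (PBS 2). AML 1 stood apart in 2 ways that touch the members: 85.3% of its cells were assigned to S or G2M, against 41.8% to 51.0% in the other libraries, and 3.3% of them were of the HSC class, against 13.7% in AML 3 and 20.5% to 23.9% in PBS. AML 2 shared 6900 of its 17055 barcodes with other libraries, and 6798 of these held more UMIs elsewhere. In the table, 47 cells had a barcode with more UMIs in another library. Summed marker levels of other lineages ranged as follows, in CPM (UMIs per 1000000 UMIs): T and NK cells 158 to 291, erythroid cells 26.2 to 414, B cells 36.5 to 80.8, neutrophils 6.25 to 21.2, monocytes and macrophages 15.4 to 38.3, mast cells and basophils 16.4 to 60.2, and immunoglobulin genes of plasma cells 652 to 1430. Cd3e was at 0 in 2 libraries and Ly6g in 4. The part of these cells in the results was not tested, except where clusters are left out below.

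The members were first described over the HSC class and the MPP-2, MPP-3 and MPP-4 classes of the authors' table. Each cell had been given the class with the highest of 4 signature scores, which held for all 16822 cells. Because the classes were made from the expression of these same cells, levels by class are a description and were not tested. Class markers listed for this work, without the members, peaked in the class they mark in these numbers: 11 of 11 for HSC, 10 of 10 for MPP-3, 8 of 10 for MPP-4 and 5 of 10 for MPP-2. Of the MPP-2 markers, Gata1, Pf4, Klf1, Car1 and Gp1bb peaked in it, whereas Itga2b, Zfpm1, Car2, Cpa3 and Rab27b did not.

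Procr and Esam had their highest level in the HSC class in 5 of 5 libraries. In AML 1 each rests on 2 UMIs in 23 HSC cells (exact 95% interval 3.95 to 117.9 CPM), so the order in AML 1 is not settled. Procr in the HSC class measured 42.4, 73.6 and 23.4 CPM in PBS 1 to 3, 32.6 in AML 1 and 27.3 in AML 3, and 39.9 ± 20.1 CPM over all (SD, n = 5). In the other classes its means were 7.08 ± 6.08 (MPP-2), 7.77 ± 5.17 (MPP-3) and 10.1 ± 7.11 CPM (MPP-4). The lowest HSC value lay above the highest value of any other class, while the ranges of those 3 classes overlapped. Esam fell in a steeper order, from 32.4 ± 10.4 CPM in HSC to 10.3 ± 5.20 in MPP-2. MPP-4 followed at 5.23 ± 2.43 and MPP-3 at 3.22 ± 2.45 CPM. The fold from first to last, 10.1, is rough, since MPP-3 had 2 Esam UMIs in PBS 2 and 1 in AML 1. The HSC range of Esam did not overlap any other, though the interval of its AML 1 value reaches into the other classes. Kit was also highest in HSC in 5 of 5 libraries, at 163 ± 57.1 CPM, and the order of the rest, MPP-4 at 86.2 ± 11.5, MPP-2 at 80.8 ± 23.0 and MPP-3 at 63.9 ± 13.9 CPM, lay within their spread.

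Slamf1, the gene of CD150, was the scarcest member and followed its protein's place in the gates. In the HSC class it measured 12.1, 13.7 and 8.2 CPM in PBS 1 to 3 and 8.5 in AML 3. AML 1 had 23 HSC cells and 0 Slamf1 UMIs among them, which allows a level of up to 48.9 CPM. In MPP-2 the 5 libraries gave 2.18 to 5.19 CPM, and in MPP-3 and MPP-4 their medians were 0.00 and 0.36 CPM. HSC and MPP-2 were each above MPP-3 and MPP-4 in 4 of 5 libraries, AML 1 being the exception. Within the gate pair that shares CD150, HSC was above MPP-2 in the same 4 libraries. These levels rest on few UMIs, 4 in each of PBS 1 and AML 3 and none elsewhere in MPP-3, and 1 to 4 per library in MPP-4, against 20 to 60 per library in the HSC class outside AML 1.

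Cd48, the gene whose protein HSCs lack, was lowest in the HSC class in 4 of 5 libraries. Its HSC levels were 66.3, 25.1 and 63.4 CPM in PBS 1 to 3, 71.7 in AML 3 and 130.5 in AML 1. The other classes had means of 184 ± 51.6 (MPP-3), 176 ± 41.2 (MPP-2) and 160 ± 36.6 CPM (MPP-4), so HSC stood 2.24-fold below the nearest class, and those 3 differed by less than their spread. AML 1 broke the order, since its HSC level, from 8 UMIs, exceeded its MPP-4 level of 128.4 CPM.

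Flt3 was highest in MPP-4 in 5 of 5 libraries. Its MPP-4 levels were 408.9, 330.7 and 410.5 CPM in PBS 1 to 3, 325.2 in AML 1 and 442.3 in AML 3, and the highest value of any other class was 167 CPM. The mean of 384 ± 52.5 CPM was 3.08-fold above MPP-2 (125 ± 27.8), and MPP-2, MPP-3 (111 ± 37.0) and HSC (89.99 ± 23.03) overlapped. Cd34 and Cd27 were also highest in MPP-4 in 5 of 5 libraries, at 331 ± 74.2 and 178 ± 25.7 CPM. The order known from protein, HSC below the other classes, held for Cd34 in 3 of 5 libraries and for Cd27 in 0 of 5. Cd27 in HSC was 134 ± 21.2 CPM, second to MPP-4, and its lowest class was MPP-3 in 4 of 5 libraries.

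Ly6a was lowest in MPP-2 in 5 of 5 libraries, at 86.6 ± 31.3 CPM, and highest in HSC in 4 of 5, at 227 ± 92.3 CPM. In the exception, PBS 2, the MPP-3 class stood at 493.6 CPM, while MPP-3 in the other libraries lay between 128 and 175 CPM. PBS 2 had 41 MPP-3 cells, and 16 of them belonged to clusters 6 to 8, described below.

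**Figure D1:**
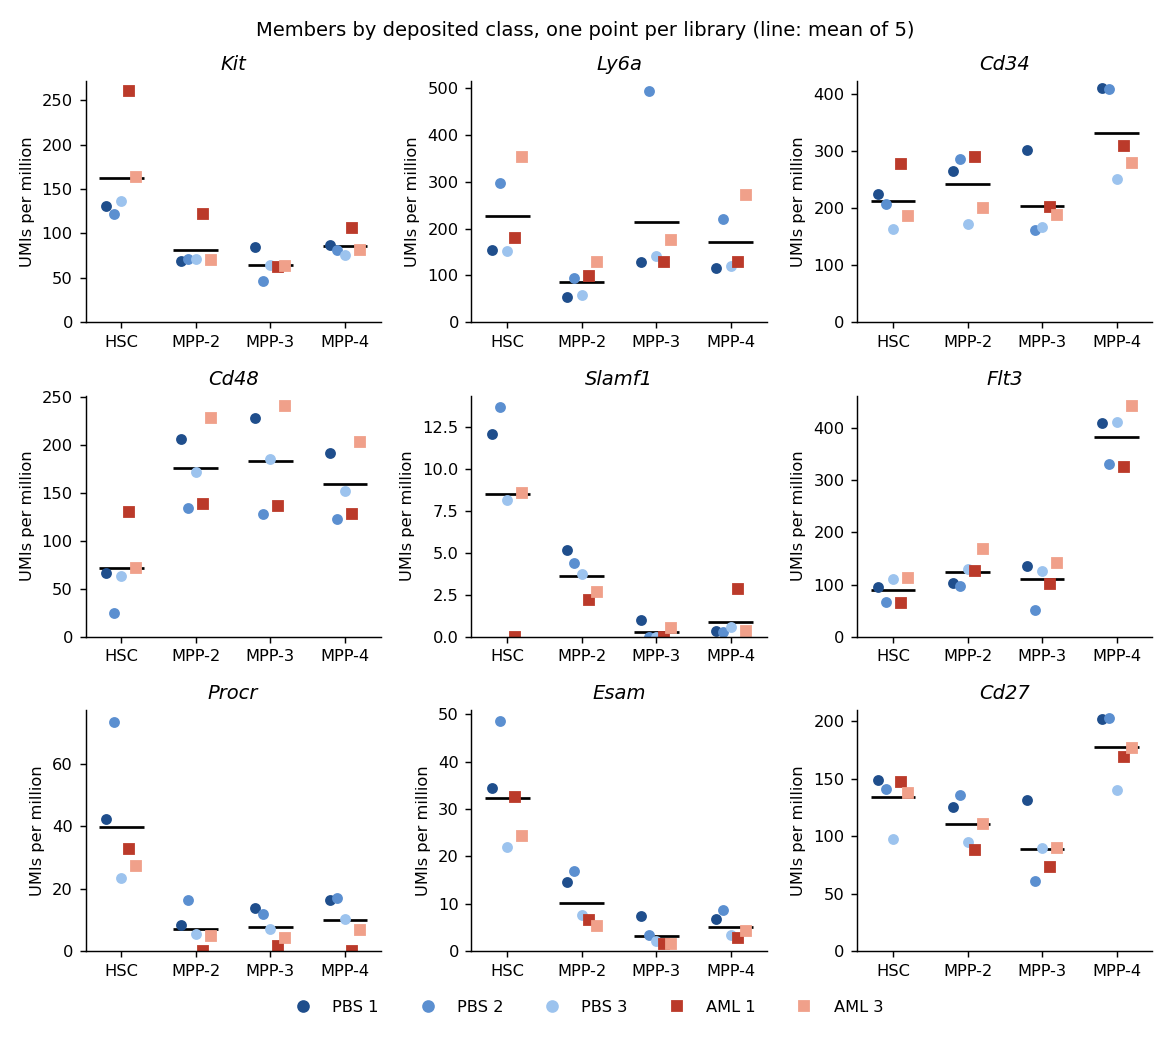
Level of each member in CPM (linear axis, from 0) by class, with 1 point for each of the 5 libraries (circles PBS, squares AML) and a line at their mean. Flt3 stands out in MPP-4, Procr, Esam and Kit in HSC, and the PBS 2 point of Ly6a in MPP-3 lies at 493.6 CPM.

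Many cells sat near a class boundary: 7379 of 16822 (43.9%) had scores for their first and second class within 0.05. In HSC cells clear of it, Slamf1 averaged 15.7 CPM against 5.6 near it, Procr 48.9 against 34.9 and Esam 36.4 against 28.4, each higher in 4 of 4 libraries with at least 20 cells in both parts. Cd48 went the other way, at 35.3 CPM clear of the boundary and 76.8 near it, lower in 4 of 4. In MPP-4, Flt3 averaged 448 CPM clear of the boundary and 298 near it, higher in 5 of 5. Cd48 did not follow in the classes whose protein gate is positive for it: it averaged 169 CPM clear of the boundary and 184 near it in MPP-2 (higher in 0 of 5), and 185 and 212 in MPP-3 (1 of 4). The signature scores may themselves hold members, so these values are descriptions.

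By likeness of profile, each member was set against 7983 genes with a mean of at least 10 CPM, using Pearson's r of log2(CPM + 1) over 20 sums of a library and a class, after taking out each library's mean. The 20 points share 5 libraries, so r is a description. Esam was most like Phlda2 (r = 0.99), Ptgs1 and Prkg1 (both r = 0.98), Kit most like Myct1 (0.98), Prkcq (0.98) and Igf1r (0.97), and Procr most like Grk3 (0.98), Gimap5 (0.96) and Usp47 (0.95). Flt3 was most like Gm41335 (0.97), Gm4258 (0.96) and Ramp1 (0.95), Cd48 like Cst7 (0.96), Clec12a (0.94) and Prim2 (0.90), and Cd34 like Il12a (0.94), Ldlrad4 (0.92) and Il18rap (0.91). Cd27 was most like Gm5111 (0.96), Tapt1 (0.96) and Rnf13 (0.96), Slamf1 like Bex4 (0.93), Yaf2 (0.91) and Pdlim1 (0.88), and Ly6a like Junb (0.88), Mef2b (0.86) and Tspan5 (0.86). Among the members, Kit and Esam were the most alike (r = 0.91), Flt3 and Cd34 followed (0.87), and Cd48 ran opposite to Slamf1 (-0.74) and Esam (-0.73). Ly6a and Kit, the pair that sets the LSK gate, had r = 0.33.

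The authors' 9 clusters, numbered 0 to 8, sorted the members along different lines from the classes. Cluster 0 (leading genes Pf4 and Pdzk1ip1) had the highest Kit, at 143 ± 24.9 CPM (SD, n = 5 libraries with at least 20 cells), with Procr at 21.2 ± 15.2 and Slamf1 at 6.61 ± 3.37 CPM. Cluster 5, led by Hist1h2bc and Ccnb2, lacked AML 1, which had fewer than 20 cells there. Its Procr was 20.4, 32.5 and 18.0 CPM in PBS 1 to 3 and 13.5 in AML 3, against 27.4, 43.5, 16.3 and 15.9 in cluster 0, and its Esam was the highest of any cluster (28.9 ± 13.9, n = 4). Cluster 2, led by Dntt, had the highest Flt3 (391 ± 52.1), Cd34 (311 ± 82.4) and Cd27 (170 ± 38.3) and a Slamf1 level of 0.201 CPM. Cluster 4, led by Prss34 and Elane, a myeloid protease, had the highest Cd48 (244 ± 58.4) and Esam at 0.492 CPM. As these are levels in clusters made from the same cells, they were not tested.

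Clusters 6, 7 and 8 departed from the rest, although their cells had passed the same gate. Cluster 6 (177 cells, led by the immunoglobulin genes Iglc3 and Igkc and by Jchain) had the lowest Kit (22.3 ± 2.72 CPM, n = 3) and the highest Ly6a of all clusters, at 390, 425 and 641 CPM in PBS 1, PBS 3 and AML 3. Igkc alone took 469880 CPM of its RNA, so all other genes there are levels within what is left. Its Cd34 was 23.2 and its Cd27 14.7 CPM, and no Slamf1 UMI was found. Cluster 7 (102 cells, led by Car1, an erythroid carbonic anhydrase) had the lowest Ly6a (26.7 ± 5.05), Cd34 (12.6) and Flt3 (15.0) and no UMI of Procr or Esam. Its Slamf1 mean of 9.41 CPM, the highest of any cluster, rested on 2, 5 and 1 UMIs in 3 libraries. Cluster 8 (113 cells, led by Trbc1 and the NK receptor Ncr1) had Ly6a at 201 ± 71.9 and Kit at 39.2 ± 19.5 CPM. The MPP-3 class took 172 of the 177 cells of cluster 6 and 72 of the 113 of cluster 8, so 2 of these clusters enter its Ly6a values.

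**Figure D2:**
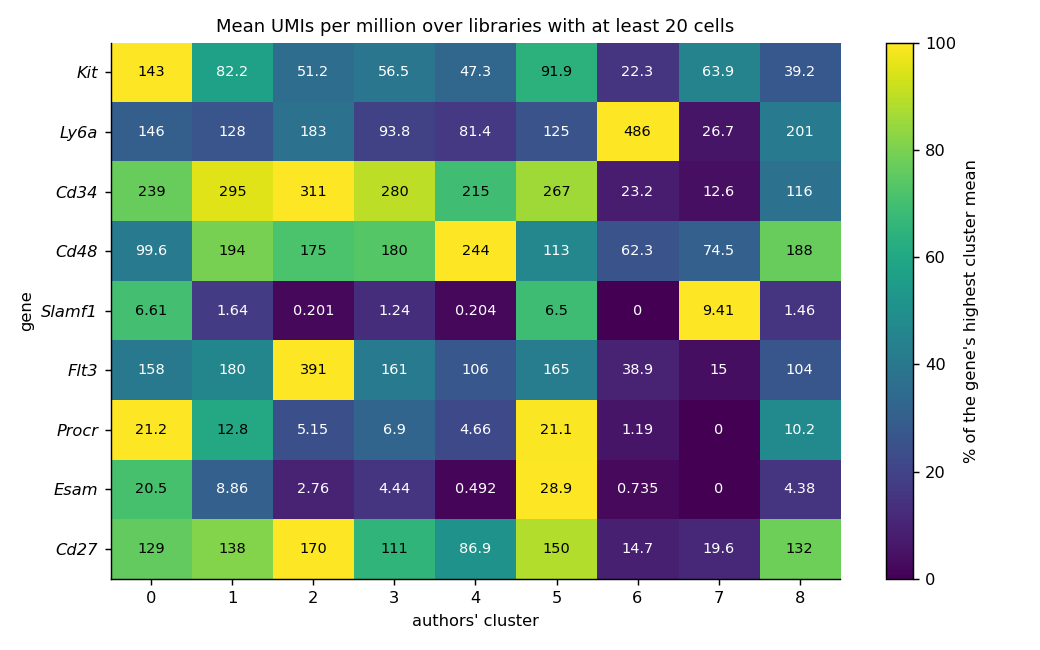
Mean level of each member (rows) in each of the authors' clusters (columns) in CPM, over libraries with at least 20 cells; colour gives each value as a percent of the gene's highest cluster. The highest Ly6a lies in cluster 6 (485.5 CPM), the cluster with the lowest CPM of Kit, Cd48 and Cd27. There Igkc alone took 469880 CPM, which lowers the CPM of all other genes.

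In single cells the sorting RNAs were sparse. Without adjusting depth, a Kit UMI was found in 33.4% of cells and a Ly6a UMI in 39.5%, although the gate had selected every cell for both proteins. To compare cells of unequal depth, each was thinned at random to 2000 UMIs, which left out 125 shallower cells of PBS 1 and 80 of PBS 3. At that depth 16.5% of cells had a Kit UMI and 21.7% a Ly6a UMI, and in each library 57.1% to 69.4% of cells had neither. Intervals below are exact binomial (Clopper-Pearson, 95%) and cover counting error only.

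Procr UMIs occurred in 7.99% of HSC cells (interval 7.06% to 9.004%), against 2.98% of MPP-4, 1.96% of MPP-3 and 1.16% of MPP-2 cells. As a guide to free RNA at the same depth, 0 of 175 cells of cluster 6 and 0 of 102 of cluster 7 held a Procr UMI, and 1 of 107 of cluster 8 did. The limits at 3 counts are 1.71% and 2.94%, and the upper ends of the exact intervals 2.09%, 3.55% and 5.10%, so the Procr shares of the MPP classes are not read as expression, while that of HSC lies above them. Flt3 UMIs occurred in 54.8% of MPP-4 cells and in 15.8% to 23.0% of the other classes, against 2.0% in cluster 7, 8.57% in cluster 6 and 14.0% in cluster 8 (8.06% to 22.1%). The shares of HSC (15.8%) and MPP-2 (19.5%) lie within the interval of cluster 8 and are not read as expression. Cd48 UMIs occurred in 9.29% of HSC cells (8.29% to 10.4%) and in 25.6% to 31.3% of the rest, but clusters 6, 7 and 8 had them in 11.4%, 14.7% and 25.2% (17.3% to 34.6%). No class lay above that last interval. Cluster 8 may hold Cd48 RNA of its own (188 ± 46.2 CPM, n = 3), so its share is no floor for free RNA. Whether the Cd48 shares lie above free RNA cannot be told from these clusters. Slamf1 UMIs occurred in 1.82% of HSC (1.38% to 2.36%), 0.81% of MPP-2 and 0.17% and 0.13% of the MPP-3 and MPP-4 cells, and in none of cluster 6. In cluster 7, 3 of 102 cells had a Slamf1 UMI (2.94%, 0.61% to 8.36%), and in cluster 8, 1 of 107. Cluster 7 had the highest Slamf1 mean of any cluster (9.41 CPM, from few UMIs) and may hold RNA of its own. Whether the Slamf1 shares lie above free RNA can thus not be told either.

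Marker codes built from RNA as the gates are built from protein placed few cells. With Slamf1 and neither Cd48 nor Flt3, the code of HSCs, there were 92 of 16617 thinned cells. Of these 55.4% were of the HSC class and 37.0% of MPP-2, while the classes made up 18.5% and 29.0% of all cells. The MPP-2 code, Slamf1 with Cd48, was met by 12 cells, 5 of them in MPP-2 and 5 in HSC. The MPP-3 code, Cd48 alone, was met by 2608 cells, of which 21.5% were of the MPP-3 class and 41.9% of MPP-2. The MPP-4 code, Flt3 without Slamf1, was met by 5455 cells, of which 64.0% were of the MPP-4 class. The largest set, 8447 cells, had no UMI of the 3 genes at this depth, and it included 75.3% of HSC and 33.5% of MPP-4 cells. Its size moves with depth: by library mean it held 54.4% of PBS and 51.3% of AML cells here and 27.9% and 33.5% without thinning. Slamf1 was found with Flt3 in 3 cells.

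By library, the code of HSCs covered 0.64%, 1.18% and 0.51% of cells in PBS 1 to 3, and 0.14% and 0.38% in AML 1 and AML 3. Both AML libraries lay below all PBS libraries (difference -0.51 percentage points). The same held for cells with a Slamf1, a Procr or an Esam UMI. How many other genes did so by share was not counted. In sums over all LSK cells, both AML libraries lay below for 17.4% of genes tested. In AML 1 only 1 of 693 cells had a Slamf1 UMI, and it met the code of HSCs (interval 0.0037% to 0.80%). The interval covers the PBS shares of that code of 0.51% and 0.64%. It also covers the mean share of cells with any Slamf1 UMI in PBS 1 and PBS 3 (0.67%). The place of AML 1 is thus settled for neither share. Procr UMIs occurred in 4.22%, 6.10% and 2.92% of PBS cells by library and in 0.29% and 1.77% of AML cells. The code of MPP-3 lay the other way, at 17.3% and 17.5% in AML against 10.6% to 16.1% in PBS. The MPP-3 class itself made up 32.9% and 22.3% of AML cells and 4.39% to 11.6% of PBS cells. In the exact two-sided permutation test of the difference in mean share over the 5 libraries, these 5 shares had p = 0.2 and an adjusted p of 0.56 over the 14 shares tested. With 3 libraries against 2, no p below 0.1 can be reached. The other 9 shares overlapped between the groups. At other depths the groups also overlapped for the code of HSCs and Slamf1 UMIs (1000 UMIs), Esam UMIs (3000 UMIs) and the code of MPP-3 (not thinned).

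Cells assigned to S or G2M and to G1 in the same library differed in the RNA of most members. The authors' table assigns each cell to G1, S or G2M from standard phase genes, none of which is a member. S and G2M were joined, named cycling here from these calls alone, and compared with G1 over 10 sums, 2 from each of 5 libraries, in an edgeR quasi-likelihood fit with library as a term. Of the 9 members 7 passed an adjusted p of 0.05, 1 higher and 6 lower in cycling cells, where 62.8% of all 12434 genes tested passed (28.8% higher, 34.0% lower). A count of 7 of 9 is thus near the background, and the sizes say more than the count.

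Cd48 was the member that rose. It went from 114.4 to 215.1 CPM (normalised by edgeR's TMM factors) in PBS 1, from 81.2 to 144.8 in PBS 2 and from 113.8 to 201.6 in PBS 3. In AML 1 it went from 94.8 to 147.4 and in AML 3 from 144.8 to 247.0 CPM. Cycling values were 1.56 to 1.88 times the G1 value in every library, and the fitted log2 difference was 0.83 ± 0.05 (SE; adjusted p = 3.52e-12 by edgeR).

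Procr and Ly6a fell most. Procr went from 26.2 to 7.9 CPM in PBS 1, from 39.9 to 16.6 in PBS 2, from 16.4 to 6.6 in PBS 3, from 7.0 to 0.6 in AML 1 and from 12.7 to 3.7 in AML 3, lower in 5 of 5 (log2 fold change -1.55 ± 0.10, edgeR adjusted p = 4.31e-11). Ly6a went from 135.3 to 60.5 CPM in PBS 1, from 313.5 to 118.3 in PBS 2, from 163.6 to 68.7 in PBS 3, from 186.0 to 107.0 in AML 1 and from 284.9 to 150.5 in AML 3. Its log2 fold change was -1.15 ± 0.06 (edgeR adjusted p = 1.62e-12). Esam (-0.80 ± 0.12), Flt3 (-0.47 ± 0.05) and Kit (-0.46 ± 0.05) were lower in 5 of 5 libraries and Cd27 (-0.26 ± 0.05) in 4 of 5, with edgeR adjusted p values from 1.20e-07 to 0.00016. Cd34 (0.00 ± 0.05) and Slamf1 (-0.17 ± 0.20) did not pass. With library size in place of TMM, the median of all genes moved from -0.07 to -0.21, the calls went from 3577 higher and 4231 lower to 2498 higher and 5876 lower, and Cd34 passed as lower (-0.14, edgeR adjusted p = 0.0297); the signs of the 7 called members were the same.

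Phase calls and class were linked, since 87.1% to 93.9% of MPP-2 cells were assigned to S or G2M against 12.1% to 43.5% of HSC cells, so the fit was repeated within each class. Cd48 passed as higher in each of the 4 classes (log2 fold changes of 1.26 in HSC, 0.86 in MPP-2, and 0.48 and 0.44 in the MPP-3 and MPP-4 classes), and Ly6a as lower in each, in the same order by -0.82, -0.56, -1.62 and -0.62. The MPP-3 value of Ly6a includes clusters 6 to 8, which held 20.3% to 53.8% of its UMIs in the libraries of that fit. The phase fit was not repeated without these clusters. Kit passed as lower in each of the 4 classes (-0.29 to -0.60). Procr passed as lower in the 3 classes where it was tested (-1.29 to -1.41). Flt3 went opposite ways: it passed as higher in MPP-2 (0.81 ± 0.13, edgeR adjusted p = 1.41e-05) and lower in MPP-4 (-0.12 ± 0.04, edgeR adjusted p = 0.0199). In MPP-2 Cd34 passed as higher too (0.55 ± 0.10). The HSC fit called 5 of 9 members (22.2% of all genes), MPP-2 6 of 7 (27.0%), MPP-3 5 of 7 (36.3%) and the MPP-4 fit 8 of 8 (40.7%). Differences between classes in the phase effect were not tested. The HSC fit lacked AML 1 and the MPP-2 and MPP-3 fits lacked PBS 2, which had fewer than 20 cells in a phase.

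**Figure D3:**
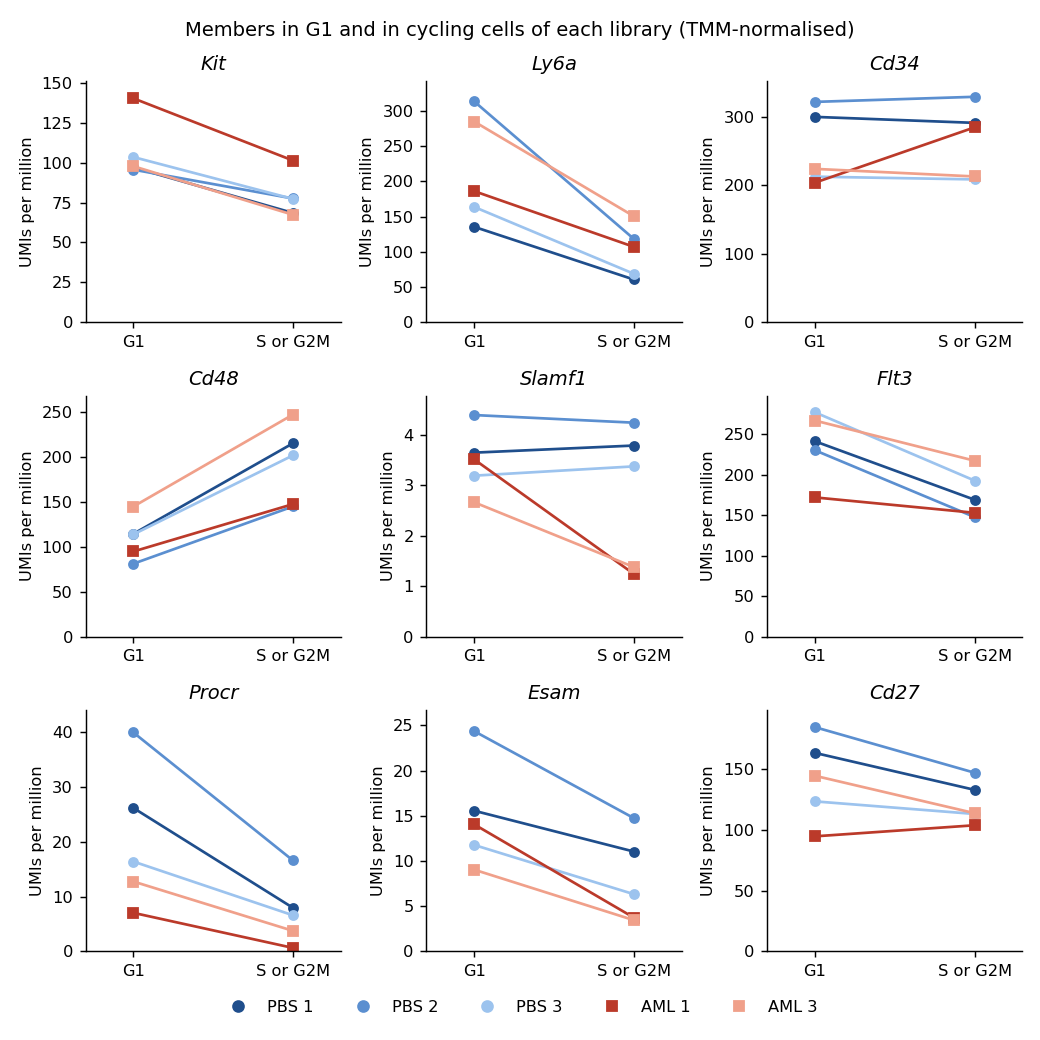
Level of each member in G1 cells and in cells assigned to S or G2M, in TMM-normalised CPM (linear axes, from 0), with 1 line for each of 5 libraries. Lines rise for Cd48 in every library and fall for Procr, Ly6a, Esam, Flt3 and Kit in every library.

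Between AML and PBS, no member passed an adjusted p of 0.05 over all LSK cells. In the edgeR quasi-likelihood test 0 of 9 passed, 3 of them had an unadjusted p under 0.05 (10.5% of all genes did), and DESeq2 and limma-voom also called 0; over all 14364 genes tested, 23 passed (0.160%). The 3 members with the lowest p were Procr, Esam and Slamf1, and each had its lower values in AML. Kit and Ly6a, which were also highest in the HSC class in 5 and 4 of 5 libraries, had log2 fold changes of 0.10 and 0.23.

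Procr measured 16.0, 26.6 and 10.8 CPM (TMM-normalised) in PBS 1 to 3 and 1.55 and 7.04 CPM in AML 1 and AML 3. The fitted log2 difference was -1.63 ± 0.42 (SE; adjusted p = 0.188 by edgeR). Esam measured 13.02, 18.7 and 8.64 CPM in PBS and 5.16 and 5.48 CPM in AML (-1.30 ± 0.33, edgeR adjusted p = 0.188). Slamf1 measured 3.71, 4.21 and 3.28 CPM in PBS and 1.55 and 1.84 CPM in AML (-1.05 ± 0.37, edgeR adjusted p = 0.334). For each of the 3, both AML libraries lay below every PBS library, as they did for 17.4% of all genes tested. AML 1 rests on 3 Procr, 3 Slamf1 and 10 Esam UMIs. Before TMM, its exact 95% interval was 0.32 to 4.51 CPM for Procr and Slamf1 and 2.46 to 9.45 CPM for Esam, which covers the 3 PBS values of Slamf1 (3.03 to 4.13) and the lowest of Esam (8.00), but none of Procr (9.98 to 26.1). The other 6 members overlapped between groups, with log2 fold changes from -0.33 (Cd27) to 0.23 (Ly6a). Summed markers of 3 other lineages also did not overlap: T and NK cells had 158 to 217 CPM in PBS and 291 and 249.7 in AML 1 and AML 3 (Cd3e, Cd3d, Cd3g and Cd8a at 0 in AML 1), monocytes and macrophages 15.4 to 20.2 against 26.2 and 38.3, and the plasma cell genes 851 to 1430 against 652 and 761. With clusters 6, 7 and 8 left out, the log2 fold changes were -1.63 for Procr, -1.31 for Esam and -1.03 for Slamf1; the part of monocyte RNA was not tested.

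The HSC class made up 3.3% and 13.7% of the AML cells against 20.5% to 23.9% of the PBS cells, and a sum over all cells cannot tell fewer cells of a kind from less RNA in each. With the 4 classes given equal weight in every library, the log2 fold changes were -1.11 for Procr, -0.71 for Esam and -0.82 for Slamf1. Their edgeR adjusted p ran from 0.536 to 0.649. The HSC part of AML 1 in this weighting came from 23 cells with 2 Procr, 2 Esam and 0 Slamf1 UMIs. With G1 cells alone the log2 fold changes were -1.16, -0.84 and -0.45, in the same order. AML 1 had 102 G1 cells. In the G1 sums of the phase comparison it lay above PBS 3 for Esam (14.0 against 11.8 CPM) and Slamf1 (3.51 against 3.19 CPM). For Procr both AML libraries stayed below PBS there. Procr passed without AML 3 (-3.49, edgeR adjusted p = 0.0409), where the lone AML 1 held 3 Procr UMIs and the spread came from the PBS libraries alone, and with the replicate number as a block (-1.33, edgeR adjusted p = 0.0360). Procr and Esam both passed when genes with low counts were kept (edgeR adjusted p of 3.08e-06 and 0.00165).

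**Figure D4:**
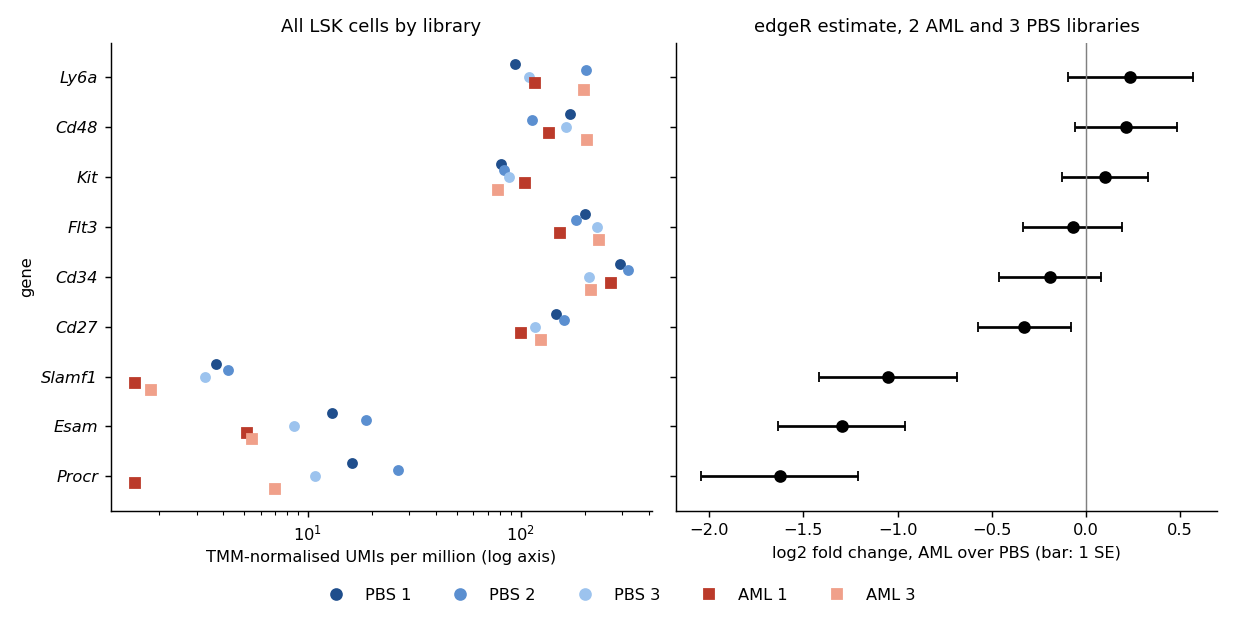
Left, level of each member over all LSK cells in TMM-normalised CPM on a log axis, 1 point per library (circles PBS, squares AML); right, the edgeR log2 fold change of AML over PBS with 1 SE. The AML squares lie left of all PBS circles for Procr, Esam and Slamf1 alone.

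Within single classes 0 members passed in any of the 4, where 0.178% of genes passed in HSC, 0.0399% in MPP-2, and 0.0486% and 0.0325% in the MPP-3 and MPP-4 classes. Esam and Slamf1 in MPP-3 and Slamf1 in MPP-4 fell under the count filter and were too scarce to be tested. Procr had a negative log2 fold change in each class (-0.83 ± 0.32 in HSC, -1.32 ± 0.52 in MPP-2, and -1.60 ± 0.48 and -1.30 ± 0.37 in the next 2 classes, edgeR adjusted p from 0.296 to 0.913). Both AML libraries lay below all PBS libraries for Procr in the 3 MPP classes (14.8%, 12.6% and 14.5% of all genes, in order). AML 1 had 0 Procr UMIs in MPP-2 and MPP-4, which allows up to 3.27 and 8.56 CPM (3 counts, before TMM). The exact 95% interval reaches 4.02 CPM in MPP-2, under the lowest PBS value (5.60), and 10.5 CPM in MPP-4, above it (10.4). In MPP-3 AML 1 had 1 UMI (1.62 CPM, interval up to 9.05, lowest PBS value 7.05), so AML 1 is not settled in MPP-3 and MPP-4. In HSC the groups overlapped, at 27.0 and 27.0 CPM against 42.4, 81.5 and 26.7. In MPP-2 Esam (-1.22 ± 0.37, edgeR adjusted p = 0.405) and Slamf1 also had both AML values below PBS. Kit in MPP-3 did so on the TMM scale and overlapped without it (61.7 and 62.8 CPM in AML, 45.95 in PBS 2). The MPP-2 values of AML 1 rest on 2 Slamf1 and 6 Esam UMIs, with intervals up to 7.87 and 14.2 CPM that reach into PBS. Slamf1 in HSC counted among the 16.3% of genes with both AML values below PBS, but AML 1 had 0 UMIs there, which allows up to 48.9 CPM, so its place is not settled. Kit in HSC lay above all PBS libraries (11.0% of genes), at 216 and 162 CPM in AML against 131, 135 and 156 in PBS (0.31 ± 0.29, edgeR adjusted p = 0.992). The AML 1 values of the HSC class come from 23 cells.

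By cluster, the groups could be set side by side in clusters 0 to 4, the 5 in which every library had at least 20 cells. Among genes that passed the count filter, both AML libraries lay below all PBS libraries for 8.80%, 14.4%, 8.99%, 8.85% and 8.71%, in order, and above them for 20.5%, 12.1%, 13.7%, 12.5% and 10.1%. Slamf1 in clusters 1 to 4 and Procr and Esam in cluster 4 did not pass that filter. Procr in cluster 0 had a mean of 29.1 CPM in PBS (16.3 to 43.5) and 9.4 in AML (2.9 and 15.9). In cluster 1 it measured 9.57 to 29.4 CPM in PBS and 6.86 in AML 3, and AML 1 had 0 UMIs, which allows up to 6.26 CPM. In clusters 2 to 4 AML 3 lay below all PBS libraries for Procr, but AML 1 had 0 UMIs with limits of 9.92, 18.1 and 13.2 CPM, above the lowest PBS values, so its place is not settled. Esam in cluster 0 stood at 10.3 and 16.3 CPM against 16.9 to 32.9, but AML 1 rests on 7 UMIs with an interval up to 21.2 CPM, so its place is not settled. In clusters 1 and 3 AML 3 was below and AML 1 had 0 Esam UMIs, with limits above the lowest PBS value. Slamf1 in cluster 0 measured 1.47 (1 UMI, interval up to 8.19) and 5.79 CPM in AML against 6.53 to 9.73 in PBS, and in clusters 2 and 3 AML 1 had 0 UMIs with limits above every PBS value. Cd27 lay below PBS in cluster 4, at 61.2 and 61.8 CPM against 76.0 to 135. Above PBS lay Kit in cluster 0 (166 and 174 CPM against 120.5 to 135), Cd48 in cluster 0 (116 and 119 against 62.7 to 114), Flt3 in cluster 3 (163 and 216 against 138 to 150.3) and Ly6a in clusters 3 and 4, at 138 and 143 CPM against 49.97 to 81.9 in cluster 3 and 106 and 132 CPM against 38.0 to 73.2 in cluster 4. The groups overlapped for the other pairs of a member and a cluster. The counting error of AML 1 reaches PBS values for Cd27 in cluster 4, Cd48 in cluster 0 and Flt3 in cluster 3. The place of AML 1 is thus not settled for these pairs either. None of the levels by cluster was tested between the groups.

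Ly6a was the only member whose AML effect differed between classes in the test of that difference (edgeR, adjusted p = 0.0183), where 111 of 12734 genes passed (0.872%). Relative to HSC, its log2 AML effect was -1.02 in MPP-3, 0.22 in MPP-2 and 0.05 in MPP-4. Fitted class by class it was -1.03 ± 0.52 in MPP-3, 0.69 ± 0.29 in MPP-2, 0.38 ± 0.30 in MPP-4 and 0.40 ± 0.28 in HSC, and none passed. The low MPP-3 value rested on PBS 2. There Ly6a stood at 641 CPM (TMM-normalised), against 111 and 150 CPM in PBS 1 and PBS 3 and 119 and 162 CPM in AML 1 and AML 3, and without PBS 2 the MPP-3 change was 0.12.

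Cells of clusters 6 to 8 held much of this RNA. In PBS 2 they were 16 of 41 MPP-3 cells (39.0%) and held 266 of the 290 Ly6a UMIs (91.7%). In the other libraries they were 4.82% to 12.8% of MPP-3 cells and held 20.3% to 53.8% of the Ly6a UMIs. With clusters 6, 7 and 8 left out, MPP-3 Ly6a was 87.4, 75.4 and 81.3 CPM in PBS 1 to 3 and 110 and 132 CPM in AML 1 and AML 3. Both AML libraries then lay above all PBS libraries, as they did for 9.86% of genes in these cells, and the log2 fold change turned to 0.62 ± 0.29 (edgeR adjusted p = 0.622). The difference between classes did not pass without these clusters (edgeR adjusted p = 0.710). It passed without each PBS library (3.92e-05 without PBS 2, 0.000877 and 0.00712 without PBS 1 and PBS 3), with library size in place of TMM (0.00268) and with low counts kept (2.96e-13). It did not pass without AML 1 (0.0634), without AML 3 (0.695), without cluster 4 (0.122) or with limma-voom and library as a random effect (1.00).

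**Figure D5:**
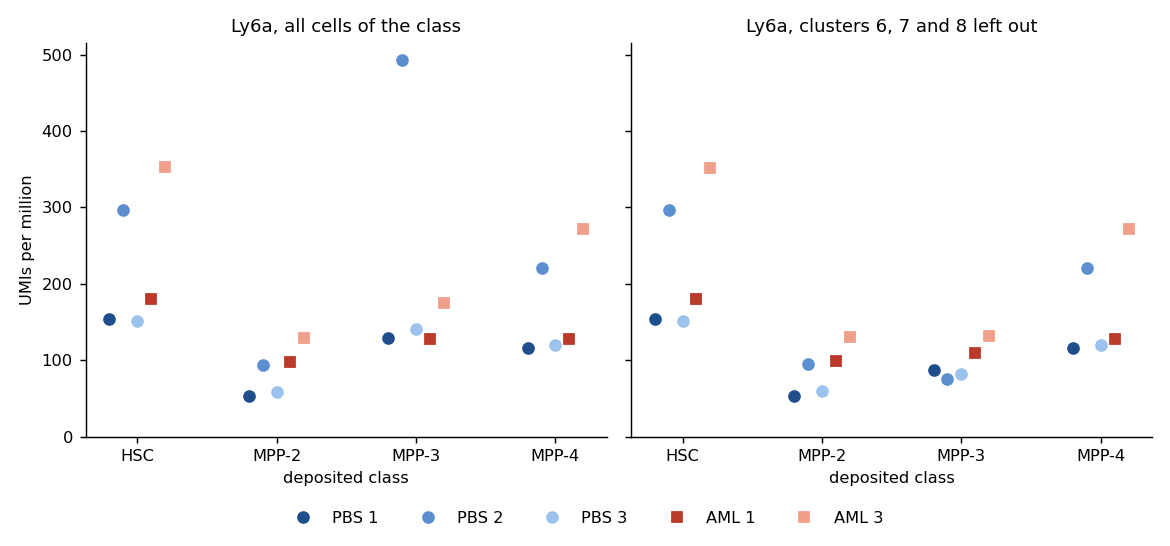
Ly6a in CPM (linear axis, from 0) by class and library, with all cells of the class (left) and with clusters 6, 7 and 8 left out (right). The PBS 2 value in MPP-3 goes from 493.6 CPM (left) to 75.4 CPM (right), where both AML values lie above the 3 PBS values.

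Lists of related genes gave the setting for these values over all LSK cells; here the median of all genes was -0.03 on the log2 scale. Of the Ly6 family, neighbours and relatives of Ly6a, 1 of 8 tested passed as higher in AML: Ly6c2, a monocyte surface gene (1.69 ± 0.27, edgeR adjusted p = 0.0183), with Ly6i next (2.43 ± 0.48, edgeR adjusted p = 0.0701) and a list median of 0.46. Ly6c2 is a leading gene of cluster 4 (91.1 CPM in it and 3.27 outside), which made up 11.1% and 9.57% of AML cells and 2.46% to 3.41% of PBS cells, and with cluster 4 left out its value was 0.28 ± 0.36 (edgeR adjusted p = 0.803) and that of Ly6i 0.30 ± 0.67. Of 28 interferon-stimulated genes, the group to which Ly6a also responds, 0 passed over all LSK cells, 12 had an unadjusted p under 0.05 and a positive sign, and the median was 0.52, led by Ifi27l2a (1.42 ± 0.29) and Oas2 (1.28 ± 0.26; both edgeR adjusted p = 0.0793). In the HSC class 9 of the 28 passed as higher (0.131% of all genes), with a median of 0.94, beside a Ly6a change of 0.40 ± 0.28 that did not (edgeR adjusted p = 0.992). These calls were lost with DESeq2, with limma-voom and without AML 3, which called 0 genes of any kind in this class (86, 435 and 915 genes at an unadjusted p under 0.05).

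None of the SLAM family (9 tested, median 0.38), the class III receptor tyrosine kinases that hold Kit and Flt3 (4 tested, median 0.28), 25 other surface genes of stem and progenitor cells (median -0.08) and 8 ligands and partners of the members (median 0.16) passed. Among the genes lowest in p after the members were Ly9 (0.54 ± 0.27), a SLAM receptor, the receptor gene Csf1r (2.11 ± 0.44, edgeR adjusted p = 0.0826), Tfrc (0.97 ± 0.26), the transferrin receptor, Pdgfrb (0.46 ± 0.26), and the selectin gene Selp (0.62 ± 0.27). Between phases, 25 of 28 interferon-stimulated genes passed as lower in cycling cells and 1 as higher (medians -0.67 and -0.07 for all genes), the direction that Ly6a took, led by Ifi44 (-1.46 ± 0.07) and Irf7 (-0.91 ± 0.05). Of the Ly6 family 3 passed as lower, with Ly6k (-1.42 ± 0.26) next to Ly6a, and 1 as higher of 5 tested, of the SLAM family 2, with Slamf7 (-3.51 ± 0.30) next to Cd48 in p, and 1 of 7, and of the receptor kinases 2 and 1 of 4. Over all genes 34.0% passed as lower and 28.8% as higher. The other surface genes lay near these shares, with 9 lower and 7 higher of 24 and Cd82 (-0.88 ± 0.09) among those lowest in p. Of the ligands and partners 1 passed as lower and 3 as higher of 8, led by Siva1 (1.19 ± 0.05), a partner of CD27.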

How the data were processed

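The 6 10x Genomics libraries (Chromium v3) of sorted LSK cells were analysed from the deposited matrices of raw UMI counts, which the authors made with Cell Ranger 7.0.1 against GRCm38 (mm10) and processed in R 4.2.2 with Seurat 4.3.0, per the labels. Classes, clusters and phases came from the authors' cell table, whose UMI and gene numbers equalled the matrices for every cell; 10 of its columns were not used. The table also holds the authors' percent of mitochondrial and ribosomal UMIs per cell and their Seurat module and phase scores, deposited as such. No doublets were called here, and the sources read for this work do not say how the authors treated them.

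Counts were summed per library, class, cluster or phase (at least 20 cells). AML was compared with PBS by edgeR's quasi-likelihood test (version 4.0.16) with TMM factors, filterByExpr and Benjamini-Hochberg adjustment, without a replicate block, and DESeq2 (1.42.0) and limma-voom (3.58.1) served as alternatives. The scripts were tested on simulated data. Shares were compared by exact permutation over libraries after thinning to 2000 UMIs (1000, 3000 and no thinning as alternatives). Replicate numbers did not pair the samples. Total UMIs ran from 7089569 to 41220306 per library. AML 2, with 0 cells in the table, entered only a fit with an own filter (at least 1000 genes and at most 10% mitochondrial UMIs).

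The 9 members and all lists were chosen with earlier results of these data known. Named genes were the members, the 3 genes most like each, and the 2 of each list with the lowest p over all LSK cells. Some genes that these rules name are not reported here.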

Additional observations from a re-analysis of the deposited data

Results flagged for a closer look

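The AML effect on Ly6a differed between the 4 classes in the test of that difference (edgeR quasi-likelihood test, adjusted p = 0.0183), which is why it is listed here. Its log2 fold change was negative in MPP-3 (-1.03) and positive in HSC (0.40), MPP-2 (0.69) and MPP-4 (0.38). PBS 2, with 41 MPP-3 cells, held the highest MPP-3 level, and 266 of its 290 Ly6a UMIs there lay in clusters 6 to 8. With these clusters left out, an alternative chosen after seeing the data, the adjusted p was 0.710 and the MPP-3 change 0.62. Leaving out 1 library, the adjusted p ran from 3.92e-05 without PBS 2 to 0.695 without AML 3, and it was 0.122 without cluster 4 and 1.00 with limma-voom and library as a random effect.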

How the results depend on the processing

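Depth limits Slamf1, Procr and Esam in AML 1 (693 cells, median of 2393 UMIs), and 2 AML libraries limit every comparison of AML with PBS. Against 0 members called over all LSK cells, 2 were called with no filter and 1 with the replicate block. Replicate numbers did not pair the samples (correlations of -0.10 and -0.17 over 7905 genes), and with this block MPP-3 Ly6a was 0.10. Members whose AML effect differed between classes numbered 0 with limma-voom and library as a random effect, without clusters 6, 7 and 8 and without cluster 4, against 1. In the phase comparison 3 were called with no library term, against 7. Of genes called over all LSK cells, 23, other settings gave 6 to 392, and leaving out 1 library 2 to 419. The same ranges were 0 to 29 and 0 to 17 in HSC (19), 6 to 156 and 0 to 84 in MPP-2 (5), 2 to 166 and 2 to 69 in MPP-3 (5), 0 to 75 and 0 to 34 in MPP-4 (4), 1 to 506 and 29 to 189 for the difference between classes (111), and 1928 to 8374 and 6434 to 8010 for phase (7808). The causes were not tested.

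Signs turned for Flt3 over all LSK cells with equal class composition (0.014) and for MPP-3 Ly6a without clusters 6 to 8 (0.62). In the phase comparison they turned for Slamf1 (0.19) and Flt3 (0.082) in HSC alone, Flt3 in MPP-2 alone (0.81), and Cd34 with library size (-0.14), thinning (-0.036) and MPP-4 alone (-0.15). Among shares, in percentage points, they turned at 3000 UMIs for Cd34 (0.60), Flt3 (1.39) and Flt3 without Slamf1 (1.40), and unthinned for Cd48 (-1.52), Kit (-8.98), Ly6a (-5.25) and none of the 3 RNAs (5.58).

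Leaving out 1 library gave log2 changes over all LSK cells of -0.12 to 0.48 (Cd48), -0.42 to 0.21 (Flt3), -0.10 to 0.32 (Kit) and -0.21 to 0.66 (Ly6a), with 0 to 1 members called. By class they were -0.58 to 0.83 (HSC Ly6a), -0.046 to 0.72 (MPP-2 Kit), -1.46 to 0.12 (MPP-3 Ly6a), -0.069 to 0.23 (MPP-4 Kit) and -0.39 to 0.76 (MPP-4 Ly6a), with 0 to 1 members differing between classes. For phase they were -0.017 to 0.072 (Cd34) and -0.27 to 0.020 (Slamf1). Shares ran from -5.91 to 5.59 (Flt3), -5.90 to 5.58 (Flt3 without Slamf1), -4.64 to 9.03 (Ly6a), -0.047 to 0.028 (Slamf1 with Cd48) and -9.01 to 2.94 points (none of the 3). No paired analysis was possible for the difference between classes or for phase beyond the library term, because each library gives 1 sum per class or phase.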

Other observations

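AML 2 has no cell in the authors' table. Of its barcodes 106 passed the own filter, and their summed levels were 150 CPM for Ly6a, 111 for Kit, 274 for Cd48, 199 for Flt3, 9.8 for Procr and 6.5 for Esam, with no Slamf1 UMI, which allows up to 9.8 CPM. Over all its barcodes, many of them shared with other libraries, AML 2 had 39 Slamf1 UMIs (5.50 CPM), above the 1.45 to 3.65 CPM of the other libraries. In barcodes outside the table, Slamf1 was 1.10 to 1.61 CPM in PBS, 1.43 in AML 1 and 2.69 in AML 3, and Procr was 11.4 to 21.7, 4.52 and 12.3 CPM. Over all barcodes the groups overlapped for Esam, with 9.73 CPM in AML 2 and 8.04 in PBS 3.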
